A study of Mus musculus with 4 samples.

Results

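Lactoferrin and its candidate cell-surface receptors are described here as 5 genes, matched by gene symbol among the 21499 genes listed for each library. They are Ltf, the gene removed in the knockout, and Itln1, Lrp1, Lrp2 and Ncl, whose proteins have been reported to bind lactoferrin at the cell surface. The choice rested on the literature on lactoferrin and not on a measured level, but it was made with earlier results of these data known. RNA was sequenced from lung taken next to B16-F10 colonies, and B16-F10 cells, a melanoma line of C57BL/6 origin, lodge in the lung after tail vein injection. Both groups were C57B/L6 mice labelled male, given 200000 cells at 8 weeks of age and killed 3 weeks later. They comprised 2 wild-type (WT) mice and 2 lactoferrin knockout (Lf-/-) mice, each with 1 library, out of 10 mice kept per genotype. How the Lf-/- allele was made is not given in the sources used here. The comparison asks how lung around metastases differs when lactoferrin is missing.

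Lactoferrin is an iron-binding glycoprotein of the transferrin family. Neutrophils store it in their secondary granules, and gland cells of moist surfaces, the airways among them, secrete it. Its strongly basic surface binds polyanions such as heparan sulfate and lipopolysaccharide, and several unrelated proteins have been reported as its receptors. Intelectin-1 (Itln1) is a secreted lectin of goblet and Paneth cells. The giant endocytic receptors Lrp1 and Lrp2 (megalin) belong to the LDL receptor family. Nucleolin (Ncl) is an abundant protein of ribosome assembly, of which a small part reaches the cell surface.

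Levels are in FPKM, a fragment count scaled for transcript length and library size, so that different genes can be set side by side. Read totals do not come with FPKM. The smallest steps between low values put the libraries at about 24200000 to 32100000 fragments, highest in knockout mouse 2, as an estimate that assumes annotated transcript lengths. Y-linked transcripts went against the label of sex. Of 4 Y-linked genes (Eif2s3y, Ddx3y, Uty and Kdm5d), all lay between 1.91 and 24.2 FPKM in the knockout mice and between 0 and 0.0426 FPKM in the wild-type mice. In every comparison below, genotype and the presence of Y-linked RNA cannot be told apart. The lung marker Sftpc, the surfactant protein C gene of alveolar type 2 cells, was abundant in all 4 libraries, between 17185 and 21592 FPKM. The airway gene Scgb1a1, in contrast, was listed at 0 in knockout mouse 2 against at least 60454 FPKM elsewhere. Libraries also stood apart by tissue content. Of 14 airway and goblet cell genes, 13 were highest in wild-type mouse 1, and so were the adipocyte genes Fabp4 and Cfd. Melanocyte genes were highest in wild-type mouse 2, although the tissue was taken as free of tumor cells. Macrophage genes were lowest in knockout mouse 2. The 7 melanocyte genes summed to 105 FPKM in wild-type mouse 2 and to between 4.68 and 8.71 FPKM in the other libraries.

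The sequences upstream of the 3 genes that mark the extremes of the results are shown first, because Ltf and Itln1 shared the same highest library while Ncl was nearly level. Each is the 250 bases before the transcription start in RefSeq's GRCm38.p6 annotation, written 5′ to 3′ on the strand of the gene. Capitals mark matches, on either strand, to ATAAA (part of the core promoter box that positions the polymerase), AGGTCA (a nuclear receptor motif), GGGCGG (a GC box) and TTNNGNAA (the pattern bound by C/EBP factors). No printed match overlaps another.
These windows lie at chr9:111019042-111019291 on the plus strand for Ltf, chr1:171535295-171535544 on the minus strand for Itln1 and chr1:86359456-86359705 on the minus strand for Ncl.
Ltf: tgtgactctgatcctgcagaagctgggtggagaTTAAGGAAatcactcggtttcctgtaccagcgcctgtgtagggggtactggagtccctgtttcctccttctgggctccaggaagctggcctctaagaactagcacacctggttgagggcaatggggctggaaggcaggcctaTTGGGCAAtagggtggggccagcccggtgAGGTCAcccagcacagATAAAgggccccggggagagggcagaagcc
Itln1: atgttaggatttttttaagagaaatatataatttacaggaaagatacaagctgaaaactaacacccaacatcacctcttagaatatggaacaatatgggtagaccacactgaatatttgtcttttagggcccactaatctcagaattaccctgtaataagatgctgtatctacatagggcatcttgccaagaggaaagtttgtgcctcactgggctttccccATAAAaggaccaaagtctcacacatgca
Ncl: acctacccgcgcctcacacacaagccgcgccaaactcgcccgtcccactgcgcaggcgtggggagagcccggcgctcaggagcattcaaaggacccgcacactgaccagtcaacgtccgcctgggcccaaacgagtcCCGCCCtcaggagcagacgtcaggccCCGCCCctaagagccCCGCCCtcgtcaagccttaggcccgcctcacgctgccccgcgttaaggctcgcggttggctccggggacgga

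Distances count from the RefSeq start. For Ltf the gene start annotated by GENCODE, 111019271, lies inside the printed window. For Ncl it lies beyond the window's end, at 86359400. In the Ltf window ATAAA started 30 bases before the RefSeq start, AGGTCA 46 bases before it, and the TTNNGNAA matches 75 and 217 bases before it. The single match in Itln1 was ATAAA, 28 bases before the start. An ATAAA on the gene strand that started 25 to 35 bases before the start was found in 1079 of 32851 RefSeq promoters (3.28%). This range was chosen after these matches were seen. Counted from the GENCODE start, the ATAAA of Ltf lies outside it. Neither Ltf nor Itln1 had a GC box, whereas Ncl had 3, Lrp2 had 2 and Lrp1 had 1. Over all promoters 32.7% held GGGCGG, 37.3% ATAAA, 36.8% TTNNGNAA and 14.0% AGGTCA. Guanine and cytosine made up 59.2% of the Ltf window and 38.0% of the Itln1 window. They made up 69.6% of the Ncl window, 67.2% of the Lrp1 window and 66.4% of the Lrp2 window. These matches describe the letters of the reference and are not measured binding sites.

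Of the 5 genes, 4 were tested and 0 passed at an adjusted p under 0.05 by limma, against 0.0239% of the 12573 genes tested (3 genes, 0.0159% higher and 0.00795% lower in the knockout). At an unadjusted p under 0.05 there were 2, Ltf and Lrp2, against 5.11% of all genes and 2.56% in the lower direction. Ltf is the gene removed, so its fall was set by the design, and only Lrp2 is a candidate receptor. For these same 2 genes each knockout mouse was lower than each wild-type mouse, an order that 17.5% of all genes tested shared, and 18.5% had the opposite order, which none of the 4 had. In wild-type mouse 1 the levels ran from Ltf through Itln1, Lrp1 and Ncl to Lrp2. In the other 3 libraries they began with Lrp1, then Ncl, then Lrp2, with Ltf and Itln1 last.

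Ltf (ENSMUSG00000032496.7, chr9:111019271-111042767, plus strand, GRCm38, 17 exons in its principal transcript) encodes lactoferrin itself. It measured 79.2 FPKM in wild-type mouse 1 and 7.32 FPKM in wild-type mouse 2, against 0.104 FPKM in knockout mouse 1 and 0.533 FPKM in knockout mouse 2. The higher knockout mouse was 13.8-fold below the lower wild-type mouse, so the groups did not overlap and Ltf followed the genotype labels. The wild-type mice were 10.8-fold apart and the knockout mice 5.13-fold apart. Ltf ranked at the 97.5th percentile of all genes in wild-type mouse 1 and at the 68.4th in wild-type mouse 2, and at the 31.8th and 39.3rd in knockout mice 1 and 2.

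At its annotated length the level of Ltf corresponds to about 5325 and 508 fragments in wild-type mice 1 and 2, and to about 6.88 and 46.9 fragments in knockout mice 1 and 2. Some Ltf sequence was therefore listed in both knockout libraries, and which exons it came from is not recorded in FPKM. On the log2(FPKM + 1) scale, which understates changes of low genes, the knockout differed from wild type by -4.31 (SE 1.09, 95% interval -7.19 to -1.43, n = 2 a genotype, unadjusted p = 0.0128). The adjusted p by limma, Benjamini-Hochberg over 12573 genes, was 0.890, so Ltf did not pass at 0.05. Without wild-type mouse 1 the difference was -2.68. With 2 mice a genotype, the smallest two-sided p an exact permutation test allows is 0.333, so no such test is given for single genes.

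Ltf was compared with genes of the cells known to make it. Among 15 neutrophil granule genes, 9 of 11 tested were lower in the knockout, with a median log2 difference of -0.73. The median over all genes tested was -0.005, and 51.2% of them were lower. Ngp, a secondary granule protein, measured 10.5 and 21.5 FPKM in wild-type mice 1 and 2 and 0.392 and 4.29 FPKM in knockout mice 1 and 2. Camp, the cathelicidin of the same granules, measured 6.69 and 12.1 FPKM against 0.306 and 3.39 FPKM. Both genes thus followed Ltf in being lower in both knockout mice and lowest in knockout mouse 1. Their higher wild-type library, however, was mouse 2 and not mouse 1. The list was not uniform in this. Of the 15 genes, 7 were highest in wild-type mouse 2, 4 in wild-type mouse 1 and 4 in knockout mouse 2. Lcn2 was highest in wild-type mouse 1, like Ltf. It measured 265 and 163 FPKM in wild-type mice 1 and 2 and 81.8 and 141 FPKM in knockout mice 1 and 2. The ratio of Ltf to Ngp was 7.53 in wild-type mouse 1, 0.341 in wild-type mouse 2, 0.265 in knockout mouse 1 and 0.124 in knockout mouse 2. Ltf divided by Camp gave 11.8, 0.604, 0.339 and 0.157 in the same order. Relative to Ngp and Camp, Ltf was far higher in wild-type mouse 1 than in any other library.

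Cd177, a surface protein of neutrophils, measured 4.49 and 3.85 FPKM in wild-type mice and 1.91 and 2.33 FPKM in knockout mice, with a log2 difference of -0.73 (SE 0.15) and an adjusted p of 0.890 by limma. S100a8 and S100a9, the calprotectin subunits of neutrophil cytosol, were highest in knockout mouse 2, at 447 and 845 FPKM, where Ltf was 0.533 FPKM. The summed level of the list was 1023 and 806 FPKM in wild-type mice and 584 and 1520 FPKM in knockout mice. Of its 15 genes, 14 were lowest in knockout mouse 1, 1 of them tied at 0 with knockout mouse 2. In whole lung, a different number of neutrophils and a different amount of RNA per neutrophil cannot be told apart.

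Genes of airway secretory and goblet cells were high in the same library as Ltf. Bpifa1, an airway surface protein of upper airways and glands, measured 1740 FPKM in wild-type mouse 1, 1.65 FPKM in wild-type mouse 2, and 8.53 and 24.4 FPKM in the knockout mice. Reg3g, an antibacterial lectin, measured 237, 0.958, 3.35 and 17.7 FPKM in the same order. Muc5b, a gel-forming mucin, measured 21.8, 2.78, 2.05 and 5.91 FPKM. These genes were low in wild-type mouse 2 and in both knockout mice and stood far higher in wild-type mouse 1. Of 14 genes in the list, 13 were highest in wild-type mouse 1, the exception being Lyz1. The lead was slight for some of them. Over the next highest library it was 1.01-fold for Dmbt1, 1.04-fold for Scgb1a1 and 1.21-fold for Scgb3a2. The list was chosen with earlier results of these data known, so the count is a description only. Left without Scgb1a1, which was listed at 0 in knockout mouse 2 against at least 60454 FPKM elsewhere, the list summed to 4561 and 1206 FPKM in the wild-type mice and 1117 and 1539 FPKM in the knockout mice. None of the list's genes passed the test, and the part of airway tissue content in the difference of Ltf was not tested.

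Itln1 (ENSMUSG00000038209.12, chr1:171518122-171535294, minus strand, 8 exons) encodes intelectin-1. Its level was 72.1 FPKM in wild-type mouse 1, a listed 0 in wild-type mouse 2, 0.242 FPKM in knockout mouse 1 and 0.516 FPKM in knockout mouse 2. A single library thus carried nearly all of the signal, 140-fold above the next highest, and the genotypes overlapped. At the annotated length these levels correspond to about 2018 fragments in wild-type mouse 1 and to about 6.66 and 18.9 in knockout mice 1 and 2. Since only 1 library reached 1 FPKM, Itln1 did not enter the main test, which takes genes at 1 FPKM or more in at least 2 libraries. Its log2 difference was -2.64, and it became 0.46, with the opposite sign, without wild-type mouse 1. With no filter limma gave an adjusted p of 0.878 (SE 2.24).

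**Figure D1:**
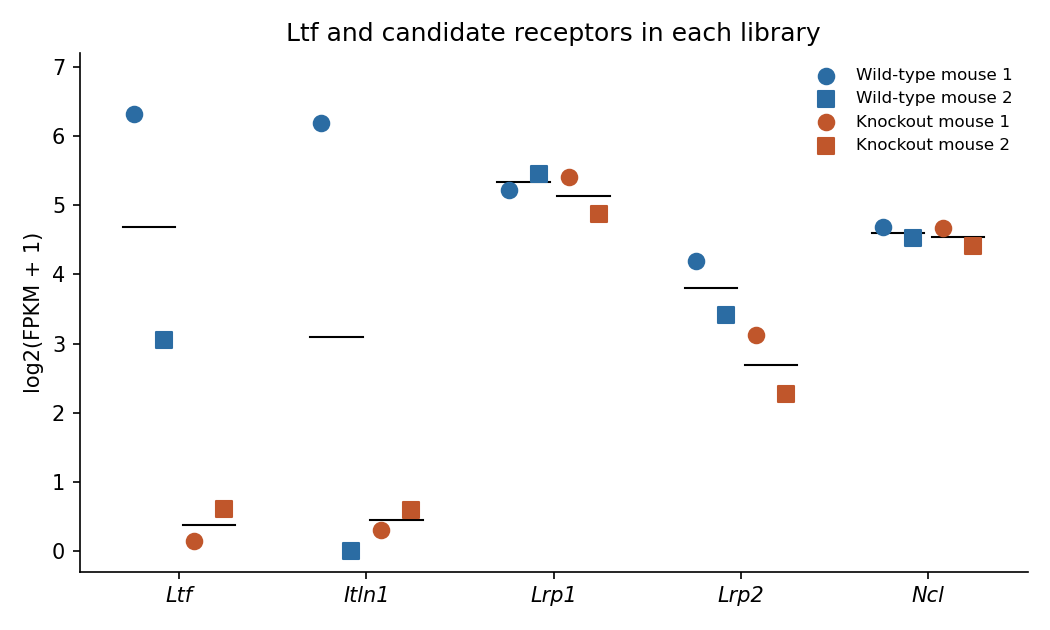
Level of each gene as log2(FPKM + 1) on the vertical axis, with 1 point per library (blue, wild type; orange, knockout; circle, mouse 1; square, mouse 2) and a bar at the mean of each genotype. Ltf and Itln1 are highest in wild-type mouse 1, at 79.2 and 72.1 FPKM, Lrp2 is lower in both knockout mice, and the genotypes overlap for Itln1, Lrp1 and Ncl.

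Wild-type mouse 1 stood above every other library by at least 10-fold, at 10 FPKM or more, for 18 of the 5648 genes that reached 10 FPKM in it. Ltf and Itln1 are both among these 18, a threshold chosen after the values were seen. Such genes numbered 20 in wild-type mouse 2 and 0 in each knockout mouse, and none of the 20 was Ltf or a candidate receptor. Likeness of pattern was measured as the Euclidean distance between mean-centred log2(FPKM + 1) values over the 4 libraries, among 12206 or 12207 named genes, as a description. The gene nearest to Itln1 was Car3, a carbonic anhydrase of fat and muscle, at a distance of 1.20, with 151 FPKM in wild-type mouse 1 and 1.46, 6.02 and 5.98 FPKM in the other libraries. Gdpd3, a lysophospholipase, followed at 1.26, then Fabp4, a fatty acid binding protein of adipocytes, at 1.66. Tff2, a mucosal trefoil peptide, lay at 1.69 with 78.2 FPKM in wild-type mouse 1 and 2.00 to 6.97 FPKM elsewhere, and Cfd, the adipocyte protease adipsin, lay at 1.80.

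The genes nearest to Ltf were Fabp4 at 2.56, Gdpd3 at 2.58 and Agr2, a disulfide isomerase of mucus-secreting cells, at 2.61, followed by Tff2 at 2.74 and the lipoxygenase gene Alox15 at 2.89. Agr2 measured 15.7 FPKM in wild-type mouse 1 and 0.741, 0.304 and 1.11 FPKM in wild-type mouse 2 and the knockout mice. Ltf was 13.8-fold higher in wild-type mouse 2 than in the higher knockout library, whereas Fabp4 was at 7.66 FPKM in wild-type mouse 2 against 7.59 and 11.3 FPKM in the knockout mice. Mesothelial genes were also set beside Itln1. Of 8 in the list, 6 were highest in wild-type mouse 1 and 5 were lowest in wild-type mouse 2, the libraries in which Itln1 was highest and listed at 0. Msln, the mesothelin gene, measured 24.2 and 7.77 FPKM in wild-type mice and 20.4 and 14.6 FPKM in knockout mice, and the list of 8 summed to between 61.3 and 101 FPKM in wild type and between 69.0 and 75.0 FPKM in the knockout. The part of mesothelial content in the values of Itln1 was not tested. Nor was the part of fat tissue content in the values of Itln1 and Ltf.

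**Figure D2:**
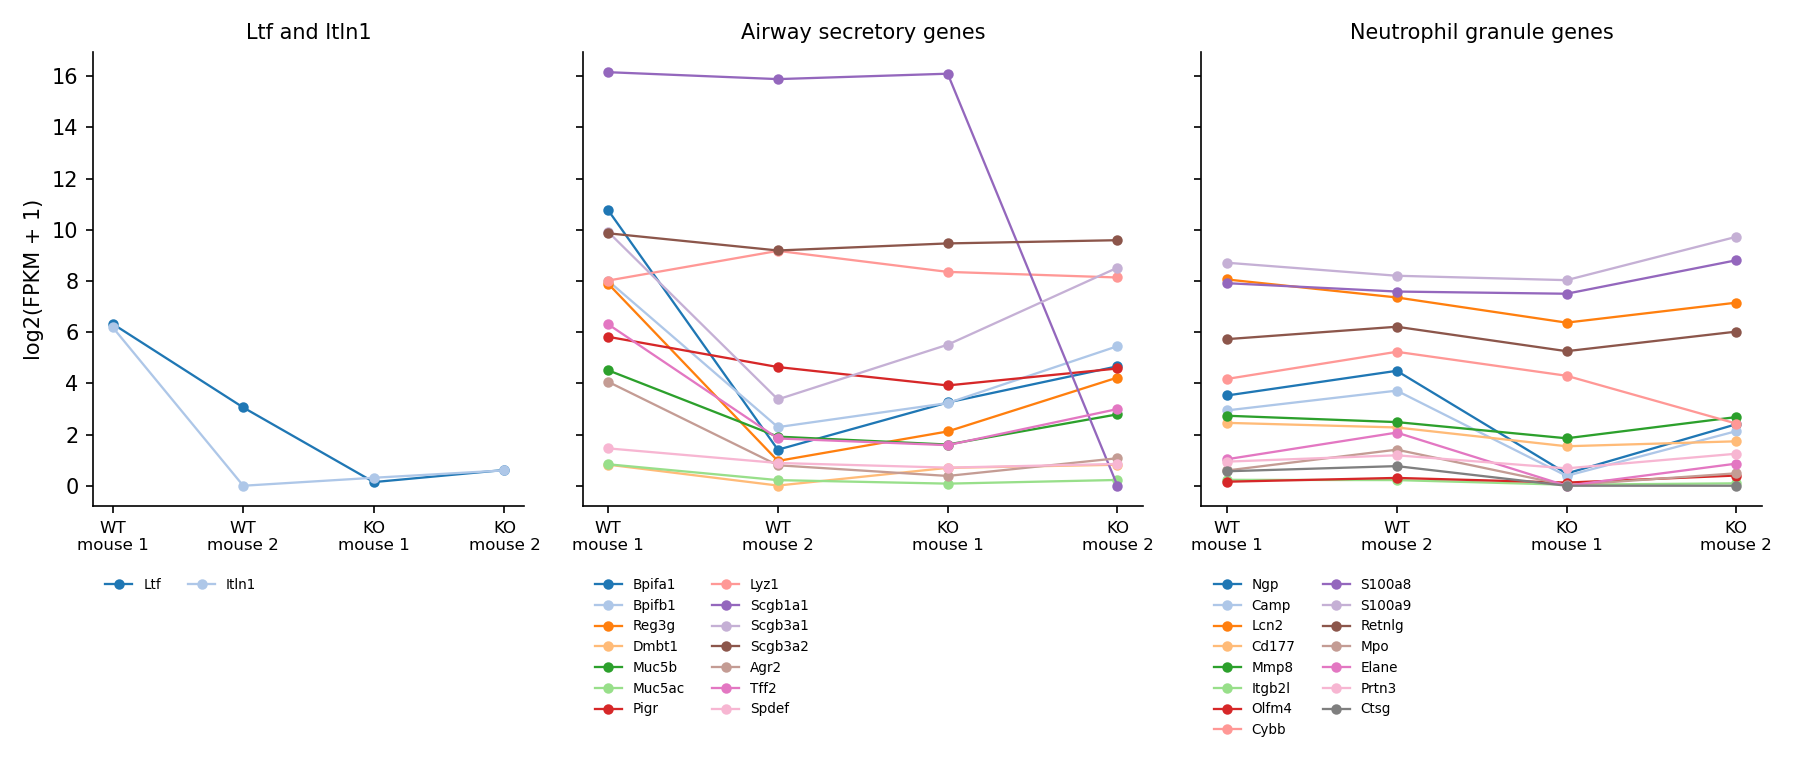
Levels as log2(FPKM + 1) in the 4 libraries (WT, wild type; KO, knockout), with a line joining the values of 1 gene across libraries that have no order. Ltf, Itln1 and most airway secretory genes are highest in wild-type mouse 1, the granule genes Ngp and Camp are higher in wild-type mouse 2, and Scgb1a1 is listed at 0 in knockout mouse 2.

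Lrp1 (ENSMUSG00000040249.15, chr10:127538161-127621148, minus strand, 89 exons) encodes an endocytic receptor of macrophages, fibroblasts and smooth muscle that clears proteases, their inhibitors and lipoproteins. It measured 36.2 and 42.5 FPKM in wild-type mice 1 and 2 and 41.3 and 28.3 FPKM in knockout mice 1 and 2. Knockout mouse 2 was lowest, the other 3 libraries were close together, and the genotypes overlapped. The mean was 39.4 ± 4.50 FPKM in wild type and 34.8 ± 9.25 FPKM in the knockout (SD, n = 2). A log2 difference of -0.19 (SE 0.22, adjusted p = 0.921 by limma) had a 95% interval of -0.77 to 0.38, which holds a fall as well as a rise. Leaving out knockout mouse 2 turned its sign, to 0.073.

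Macrophage and fibroblast genes, of cells that carry Lrp1, were examined beside it. All 10 macrophage genes were lowest in knockout mouse 2, and they summed to 617 and 606 FPKM in wild type and to 411 and 110 FPKM in knockout mice 1 and 2. The 10 fibroblast genes summed to 1032 and 743 FPKM in wild type and to 892 and 691 FPKM in the knockout. Lrp1 ranked at the 94.1st percentile in knockout mouse 1 and at the 90.8th in knockout mouse 2, and the part of macrophage content in this was not tested. The gene closest to Lrp1 in pattern was Hexa, a lysosomal hexosaminidase subunit, at a distance of 0.035, with 63.1, 73.5, 70.6 and 50.2 FPKM in wild-type mice 1 and 2 and knockout mice 1 and 2. Csf2ra, the alpha chain of the GM-CSF receptor, followed at 0.040, then Cd8a, Antxr1 and Man2b2 at 0.047 to 0.054.

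Lrp2 (ENSMUSG00000027070.14, chr2:69424340-69586065, minus strand, 79 exons) encodes megalin, an endocytic receptor on the apical face of absorptive epithelia. It measured 17.3 FPKM in wild-type mouse 1, 9.61 FPKM in wild-type mouse 2, 7.70 FPKM in knockout mouse 1 and 3.83 FPKM in knockout mouse 2. Both knockout mice lay below both wild-type mice, although wild-type mouse 2 was only 1.25-fold above knockout mouse 1. The means were 13.4 ± 5.41 FPKM in wild type and 5.76 ± 2.74 FPKM in the knockout (SD, n = 2), a ratio of 0.429. Lrp2 did not pass the test, with a log2 difference of -1.10 (SE 0.39, 95% interval -2.14 to -0.06, unadjusted p = 0.0419, adjusted p = 0.890 by limma). Without wild-type mouse 1 the difference was -0.71, and without knockout mouse 2 it was -0.68.

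Lrp2 was set beside the alveolar type 2 genes, whose cells line the airspaces and make surfactant. All 10 of them were lower in the knockout, 8 with no overlap between genotypes, and 9 of 10 were lowest in knockout mouse 2. Over all genes tested, 51.2% were lower and 17.5% were lower with no overlap. Their summed level was 31911 and 33786 FPKM in wild type and 31075 and 23371 FPKM in knockout mice 1 and 2. Sftpd, the surfactant protein D gene, measured 1188 and 907 FPKM in wild type and 648 and 668 FPKM in the knockout, with an adjusted p of 0.890 by limma. Lrp2 itself was 2.01-fold higher in knockout mouse 1 than in knockout mouse 2. The part of type 2 cell content in the values of Lrp2 was not tested. Il33, an alarmin cytokine of lung epithelium, was nearest to Lrp2 in pattern at a distance of 0.11, with 60.7 and 38.0 FPKM in wild type and 29.4 and 15.2 FPKM in the knockout. The chemokine gene Cxcl13, the granzyme gene Gzma, Olfml2b and the fatty acid synthase gene Fasn followed at 0.15 to 0.30.

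Lrp1 exceeded Lrp2 in every library, by 2.10-fold in wild-type mouse 1, 4.43-fold in wild-type mouse 2, 5.37-fold in knockout mouse 1 and 7.38-fold in knockout mouse 2. In the LDL receptor family of 15 genes, both included, Lrp1 ranked second by mean FPKM at 37.1 and Lrp2 eighth at 9.60. Lrp10 was the most abundant, between 46.4 and 48.9 FPKM. Lrp1b, the closest relative of Lrp1, was at 0.005 FPKM or lower in every library. Over the 4 libraries Lrp10 lay above Lrp1 without overlap. The range of Lrp2 overlapped those of its neighbours in this order, Lrp6 and Ldlrad3.

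Of the other family members, 11 of 13 were tested, 7 were lower in the knockout and 4 higher, with a median log2 difference of -0.04 and 0 past the threshold by limma (0 at an unadjusted p under 0.05). Lrp5, a Wnt co-receptor, measured 15.2 and 18.6 FPKM in wild type and 14.4 and 12.8 FPKM in the knockout. Lrp12 measured 4.16 and 4.22 FPKM against 3.64 and 1.97 FPKM, and Vldlr, the VLDL receptor, 6.16 and 7.06 FPKM against 8.13 and 7.16 FPKM. For these 3 genes the genotypes did not overlap, with Vldlr higher in the knockout. Among the 11 tested, 3 were lower and 1 was higher with no overlap. Over all genes tested, 51.2% were lower, 17.5% were lower with no overlap and 18.5% were higher with no overlap. Without wild-type mouse 1 the count of lower members was 4.

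Chaperones, adaptors and co-receptors of Lrp1 and Lrp2 were examined next. Of 8 tested, 2 were lower and 6 higher in the knockout (median 0.09), and 0 passed the threshold or an unadjusted p of 0.05. Among all genes tested, 51.2% were lower, 0.0239% passed and 5.11% had an unadjusted p under 0.05 by limma. Genotypes did not overlap for 2 lower and 3 higher members, against 17.5% and 18.5% of all genes. Lrpap1, the chaperone that keeps ligands off both receptors in the secretory pathway, lay between 32.8 and 38.4 FPKM in the 4 libraries. Dab2, an endocytic adaptor of megalin, measured 13.5 and 12.6 FPKM against 11.5 and 6.91 FPKM (log2 difference -0.50, SE 0.24, adjusted p = 0.890 by limma). Snx17, a sorting nexin that recycles Lrp1, measured 36.4 and 33.9 FPKM against 43.9 and 38.4 FPKM, and Mesdc2, a folding chaperone of the family, had 11.9 FPKM in its higher wild-type library and 12.5 FPKM in its lower knockout library. Cubn and Amn, the co-receptor pair of megalin in kidney, were at 0.22 FPKM or lower in every library. Without knockout mouse 1 the count of lower members was 4.

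Ligands of Lrp1 other than lactoferrin were lower in the knockout for 11 of 13 tested, with a median log2 difference of -0.21, where 51.2% of all genes tested were lower. In 5 of the 13 each knockout mouse was below each wild-type mouse, an order found in 17.5% of all genes. None passed by limma, and 3, all lower, had an unadjusted p under 0.05, against 2.56% of all genes in that direction. The 10 macrophage and the 10 type 2 cell genes were all lower in the knockout as well, and their part in the ligands' values was not tested. Lpl, lipoprotein lipase, measured 60.4 and 53.1 FPKM in wild type and 37.9 and 23.2 FPKM in the knockout (log2 difference -0.91, SE 0.26). Hpx, the haem carrier haemopexin, measured 1.82 and 2.66 FPKM against 0.972 and 1.21 FPKM, and Mmp2, a gelatinase, 50.5 and 41.0 FPKM against 34.2 and 20.7 FPKM. The count of lower members was between 9 and 10 when any 1 library was left out.

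Ncl (ENSMUSG00000026234.12, chr1:86344719-86359400, minus strand, 14 exons) encodes nucleolin. It measured 24.7 and 21.9 FPKM in wild-type mice 1 and 2 and 24.6 and 20.4 FPKM in knockout mice 1 and 2. The highest and lowest libraries were 1.21-fold apart, the smallest range of the 5 genes, and each genotype held 1 higher and 1 lower library. A log2 difference of -0.05 (SE 0.14, 95% interval -0.44 to 0.33, adjusted p = 0.967 by limma) changed sign without wild-type mouse 1 (0.027) or without knockout mouse 2 (0.076). The Ncl gene overlaps 4 small RNA genes, among them the snoRNA genes Snora75 and Snord82, which were not analysed here.

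Genes of other nucleolar proteins were set beside Ncl. Of 16 tested, 7 were lower and 9 higher in the knockout (median 0.03). By limma 0 were past the threshold and 0 at an unadjusted p under 0.05. Among all genes tested, 51.2% were lower, 0.0239% passed and 5.11% had an unadjusted p under 0.05. Genotypes did not overlap for 3 lower and 2 higher members, against 17.5% and 18.5% of all genes. Npm1, nucleophosmin, measured 14.2 and 13.5 FPKM in wild type and 16.3 and 18.3 FPKM in the knockout (log2 difference 0.30, SE 0.12, adjusted p = 0.890). Dkc1, the pseudouridine synthase dyskerin, measured 7.40 and 7.28 FPKM against 6.44 and 6.01 FPKM, and Ddx21, a nucleolar RNA helicase, 17.9 and 16.8 FPKM against 15.7 and 14.8 FPKM. The count of lower members fell to 4 when wild-type mouse 1 was left out and rose to 13 when the other wild-type mouse was. Tmem263, Mrpl3, Wdr36, Cmtr1 and Rwdd1 were nearest to Ncl in pattern, at distances of 0.0082 to 0.020. For a gene as level as Ncl such closeness says little beyond a small range.

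Other proteins reported to bind lactoferrin include lipopolysaccharide receptors, syndecans and asialoglycoprotein receptors. Of 13, 11 were tested, and 7 were lower and 4 higher in the knockout (median log2 difference -0.11). None passed by limma, and 1 had an unadjusted p under 0.05. Over all genes tested, 51.2% were lower. An unadjusted p under 0.05 by limma was found for 5.11% of them, 2.56% in the lower direction. The listed gene under 0.05 was Cp, ceruloplasmin, a copper ferroxidase that forms complexes with lactoferrin. Cp measured 49.9 and 38.1 FPKM in wild type and 31.7 and 31.0 FPKM in the knockout (log2 difference -0.46, SE 0.16, unadjusted p = 0.0406, adjusted p = 0.890). Cd14, the lipopolysaccharide co-receptor, measured 40.0 and 30.4 FPKM against 29.2 and 27.1 FPKM, and Tlr4, its signalling partner, 4.46 and 5.12 FPKM against 4.29 and 2.99 FPKM. Cp, Cd14 and Tlr4 were the only 3 of the 11 tested whose genotypes did not overlap. Both knockout mice were below both wild-type mice for them, as for 17.5% of all genes tested. The count of lower members was 4 without knockout mouse 2. Gapdh, a glycolytic enzyme also reported as a lactoferrin receptor, was listed between 0.05 and 0.09 FPKM in every library, and since nearly every cell uses this gene its values are not read as its level.

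The transferrin family and its receptors were examined as relatives of lactoferrin. Trf, serum transferrin, measured 156 and 139 FPKM in wild type and 123 and 91.2 FPKM in the knockout, and Tfrc, the transferrin receptor, 24.8 and 23.8 FPKM against 19.6 and 13.8 FPKM. Both were lower in both knockout mice, an order that 17.5% of all genes tested shared. They were lowest in knockout mouse 2, with adjusted p = 0.890 by limma for each. Mfi2 and Tfr2, also listed, were at 0.15 FPKM or lower in every library and were not tested. Serum transferrin exceeded lactoferrin mRNA in all 4 libraries.

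**Figure D3:**
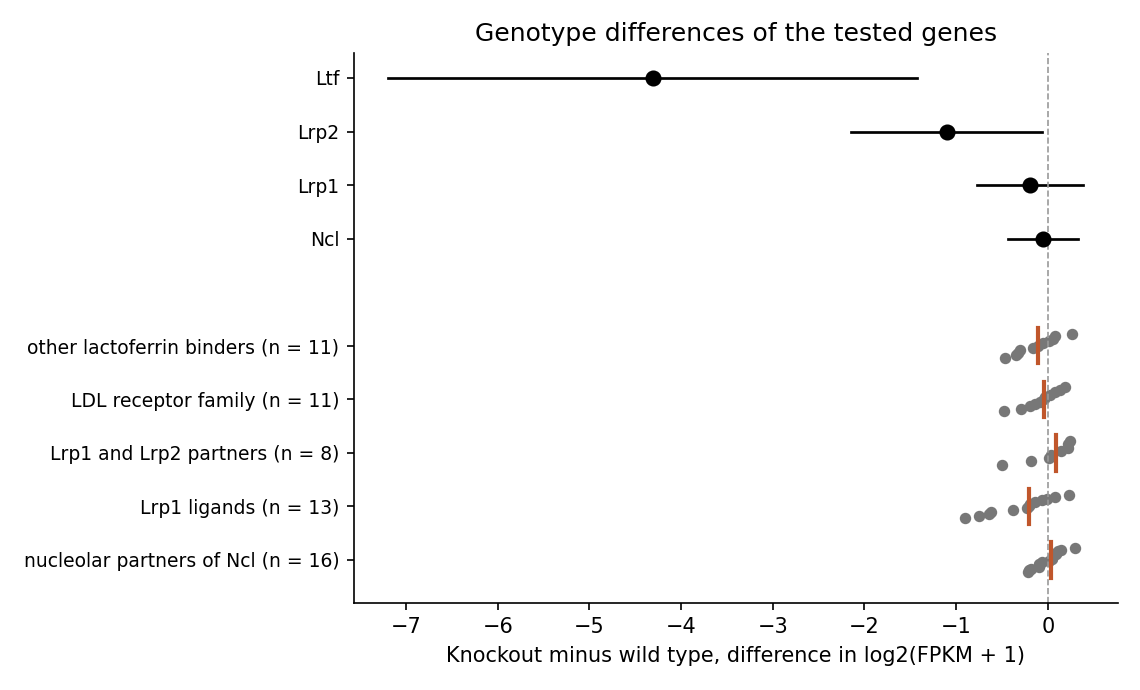
Knockout minus wild type as a difference in log2(FPKM + 1), with black points and 95% limma intervals for the 4 tested genes, grey points for the tested members of each list and an orange line at the list's median. Ltf lies at -4.31 and Lrp2 at -1.10, while Lrp1, Ncl and the medians of the 5 lists lie between -0.21 and 0.09.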

How the data were processed

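The authors deposited FPKM values, 1 per gene symbol and library, for 4 mice. The submitters' processing notes list TopHat, Cufflinks, HTSeq, DESeq and GRCm38 with no version or role. Strand setting, annotation and multiply mapped reads: not given in the sources used here. Where 1 of 39 symbols recurred, its entries (46 extra) were added up. Genes at 1 FPKM or more in at least 2 libraries (12573) were compared by genotype on log2(FPKM + 1) with limma 3.58.1 in R 4.3.3 (trend, 2 residual and 2.62 prior degrees of freedom, Benjamini-Hochberg at 0.05). The step was checked on simulated data. The mice are separate animals by their labels, and their number limits precision. Depth was estimated from value times length of genes with 1 annotated transcript of 900 to 6000 bases, and in each library the steps were blurred. Positions came from GENCODE vM21, and near-identical transcripts (95% identity over 50% of length) were searched with BLAST 2.17.0. None was found for Ltf, Itln1, Lrp1 or Lrp2, and for Ncl 3 short ones, absent from the tables. With no demand on coverage, stretches of the Ncl transcript matched 303 other genes at that identity, against 0 for each of the other 4. Their part in the level of Ncl was not tested. The 5 promoters came from RefSeq. Python 3.11.15, pandas 2.3.3 and matplotlib 3.10.9 were used. Named genes were the 5 genes, up to 3 per list with the smallest p, the first 2 genes of a list as markers, and the 5 nearest by pattern. S100a8, S100a9, Muc5b, Reg3g, Lrp6, Ldlrad3, Lrp10, Lrp1b, Lrpap1, Cubn, Amn, Gapdh, Scgb1a1, Lyz1 and the Y-linked genes were named after their values were seen. So were Lcn2, Dmbt1, Scgb3a2, Mfi2 and Tfr2. The genes and lists were chosen with earlier results of these data known.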

Additional observations from a re-analysis of the deposited data

How the results depend on the processing

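The alternatives were quantile normalization or median ratio scaling, a constant prior variance, a pseudocount of 0.1 or 0.5, a filter at a mean of 5 FPKM or none, a replicate block, and each library left out in turn. Ltf and Lrp2 kept their sign and did not pass in all 12. Other than with a library left out, Ltf ranged from -6.08 to -4.25 and Lrp2 from -1.23 to -1.07. With 1 library left out, Ltf ranged from -5.95 to -2.68, Lrp2 from -1.53 to -0.68, Itln1 from -5.74 to 0.46, Lrp1 from -0.46 to 0.073 and Ncl from -0.18 to 0.076. The signs turned without wild-type mouse 1 for Itln1 (0.46) and Ncl (0.027) and without knockout mouse 2 for Lrp1 (0.073) and Ncl (0.076). In these fits the lone mouse of a genotype is assumed to vary like the others. Adjusted p was between 0.110 and 1.00 for Ltf and between 0.467 and 1.00 for Lrp2. The 3 genes called became 0 with no filter and 0 with the replicate block, and 0 to 1 with a library left out. The mouse numbers name separate animals and do not pair them: with the number as a replicate block Lrp2 had an unadjusted p of 0.00195 and an adjusted p of 0.926, and the correlation across genes of the within-genotype differences was -0.34 (2 pairs). Quantile normalization changed the split of genes under an unadjusted p of 0.05 from 320 higher and 322 lower in the knockout to 432 and 252. Genes whose genotypes do not overlap numbered 4524 and between 8006 and 9067 with a library left out, where fewer mice have to be in order. Leave-one-out counts of list members were added after seeing the data. About 6.88 fragments of Ltf in knockout mouse 1 limit the precision of its ratio.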
